A study of Rattus norvegicus with 38 samples.

Results

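The miR-99, miR-10 and miR-125 miRNAs were followed in rat liver across 9 diets. They were taken by name from the array: rno-miR-99a, rno-miR-99b, rno-miR-100, rno-miR-10a-5p, rno-miR-10b, rno-miR-125a-5p and rno-miR-125b-5p, which are 7 of the 350 miRNAs measured. The prefix rno, for the rat, is left out from here on. Male Fischer (F344) rats were bought at 8 weeks of age and fed for 90 days, and liver RNA of 38 of them was hybridized, 1 array each. Control diet was fed to 5 of these rats. Groups of 5 received Benzophenone (1250 ppm) or 2-acetylaminofluorene (40 ppm), and 3 received Phenobarbital (1000 ppm). Groups of 4 received Chlorendic Acid (1250 ppm), Diethylhexylphthalate (12000 ppm), Diethylthiourea (2500 ppm), Methapyrilene HCl (250 ppm) or Monuron (1500 ppm). Doses were carcinogenic or maximum tolerated ones, and the study asked how such diets change liver miRNAs.

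A miRNA is a short RNA that guides silencing proteins to messenger RNAs, mainly through its seed, the bases 2 to 8 from its 5′ end. The miR-99, miR-10 and miR-125 families are old in animal evolution. miR-99 and miR-125 genes lie together with a let-7 gene in clusters that were copied in vertebrates, while the miR-10 genes lie within the Hox clusters, the arrays of homeobox genes that pattern the body axis. miR-125 is the vertebrate counterpart of lin-4, which was found in Caenorhabditis elegans as a regulator of developmental timing. Targets described for miR-99 and miR-100 in mammals include Mtor, a kinase that controls cell growth.

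The RefSeq table of the GRCr8 rat genome gave the mature sequence of 6 of the 7, and these are shown because near-identical members can share probe signal. The missing one is miR-99a, so its sequence could not be compared with those of miR-100 and miR-99b. The seed is in capitals.
miR-99b: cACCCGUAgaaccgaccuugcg
miR-100: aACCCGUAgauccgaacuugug
miR-10a-5p: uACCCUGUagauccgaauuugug
miR-10b: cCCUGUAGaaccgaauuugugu
miR-125a-5p: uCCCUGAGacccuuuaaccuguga
miR-125b-5p: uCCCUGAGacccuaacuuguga
miR-99b and miR-100 shared the seed ACCCGUA and 18 of 22 bases. miR-125a-5p and miR-125b-5p shared the seed CCCUGAG and the first 13 bases. miR-10a-5p has the seed ACCCUGU, and the annotated miR-10b-5p starts 2 bases further in, so its bases 2 to 8 read CCUGUAG. Over the 21 bases that align, miR-10a-5p and miR-10b had 1 mismatch. miR-100 and miR-10a-5p, with different seeds, matched at 19 of 22 aligned bases. Hybridization may not separate such pairs fully, so a change in one can leak into the signal of the other.

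The 8 genes of the 7 miRNAs lie on the plus strand, since miR-125b-5p has a pair of them. Mir99b, Mirlet7e and Mir125a lie within 0.696 kb on chromosome 1, inside the protein-coding gene Spaca6 as annotated, with miR-99b at chr1:67350070-67350091 and miR-125a-5p at chr1:67350689-67350712. Mir100, Mirlet7a-2 and Mir125b1 span 51.8 kb on chromosome 8, with miR-100 at chr8:50798307-50798328. Mir99a, Mirlet7c1 and Mir125b2 span 45.3 kb on chromosome 11, with miR-125b-5p of Mir125b2 at chr11:29732588-29732609. miR-125b-5p is made from both of the last 2 clusters, and its probes cannot tell the copies apart. miR-10a-5p lies at chr10:81779730-81779752 between Hoxb5 and Hoxb4, and miR-10b at chr3:80035886-80035907 within the annotated span of Hoxd4. The clusters are completed by 3 let-7 miRNAs.
let-7c: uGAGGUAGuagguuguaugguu
let-7a: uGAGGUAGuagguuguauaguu
let-7e: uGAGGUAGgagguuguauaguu
let-7a and let-7c differed at 1 of 22 bases, and both are also made elsewhere in the genome.

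Levels below are log2 of a probe's signal over the 75th percentile of its array, with a floor at -5.49, which was 16.7 signal units for the median array. Each miRNA is represented by the brighter of its 2 probes, and one probe's level cannot be set against another's. Across the series 90 to 141 miRNAs were detected per array, no spot was saturated, and 129 miRNAs were tested. In control liver the levels were 0.52 ± 0.10 (SD, n = 5) for miR-99a, -1.87 ± 0.24 for miR-100, 1.14 ± 0.19 for miR-125b-5p, -3.78 ± 0.13 for miR-125a-5p, -1.76 ± 0.08 for miR-10a-5p and -4.09 ± 0.03 for miR-10b. These 6 were detected on all 38 arrays. miR-99b, at -5.43 ± 0.06 in control, was detected on 24 of 38 arrays and on 2 of 5 control arrays, with 2 control arrays at the floor, so its values sit at the edge of what the array could measure. The other probe was detected on 38 arrays for miR-99a, miR-10a-5p and miR-125b-5p, on 22 for miR-100, on 21 for miR-125a-5p, on 8 for miR-99b and on 1 for miR-10b.

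**Figure D1:**
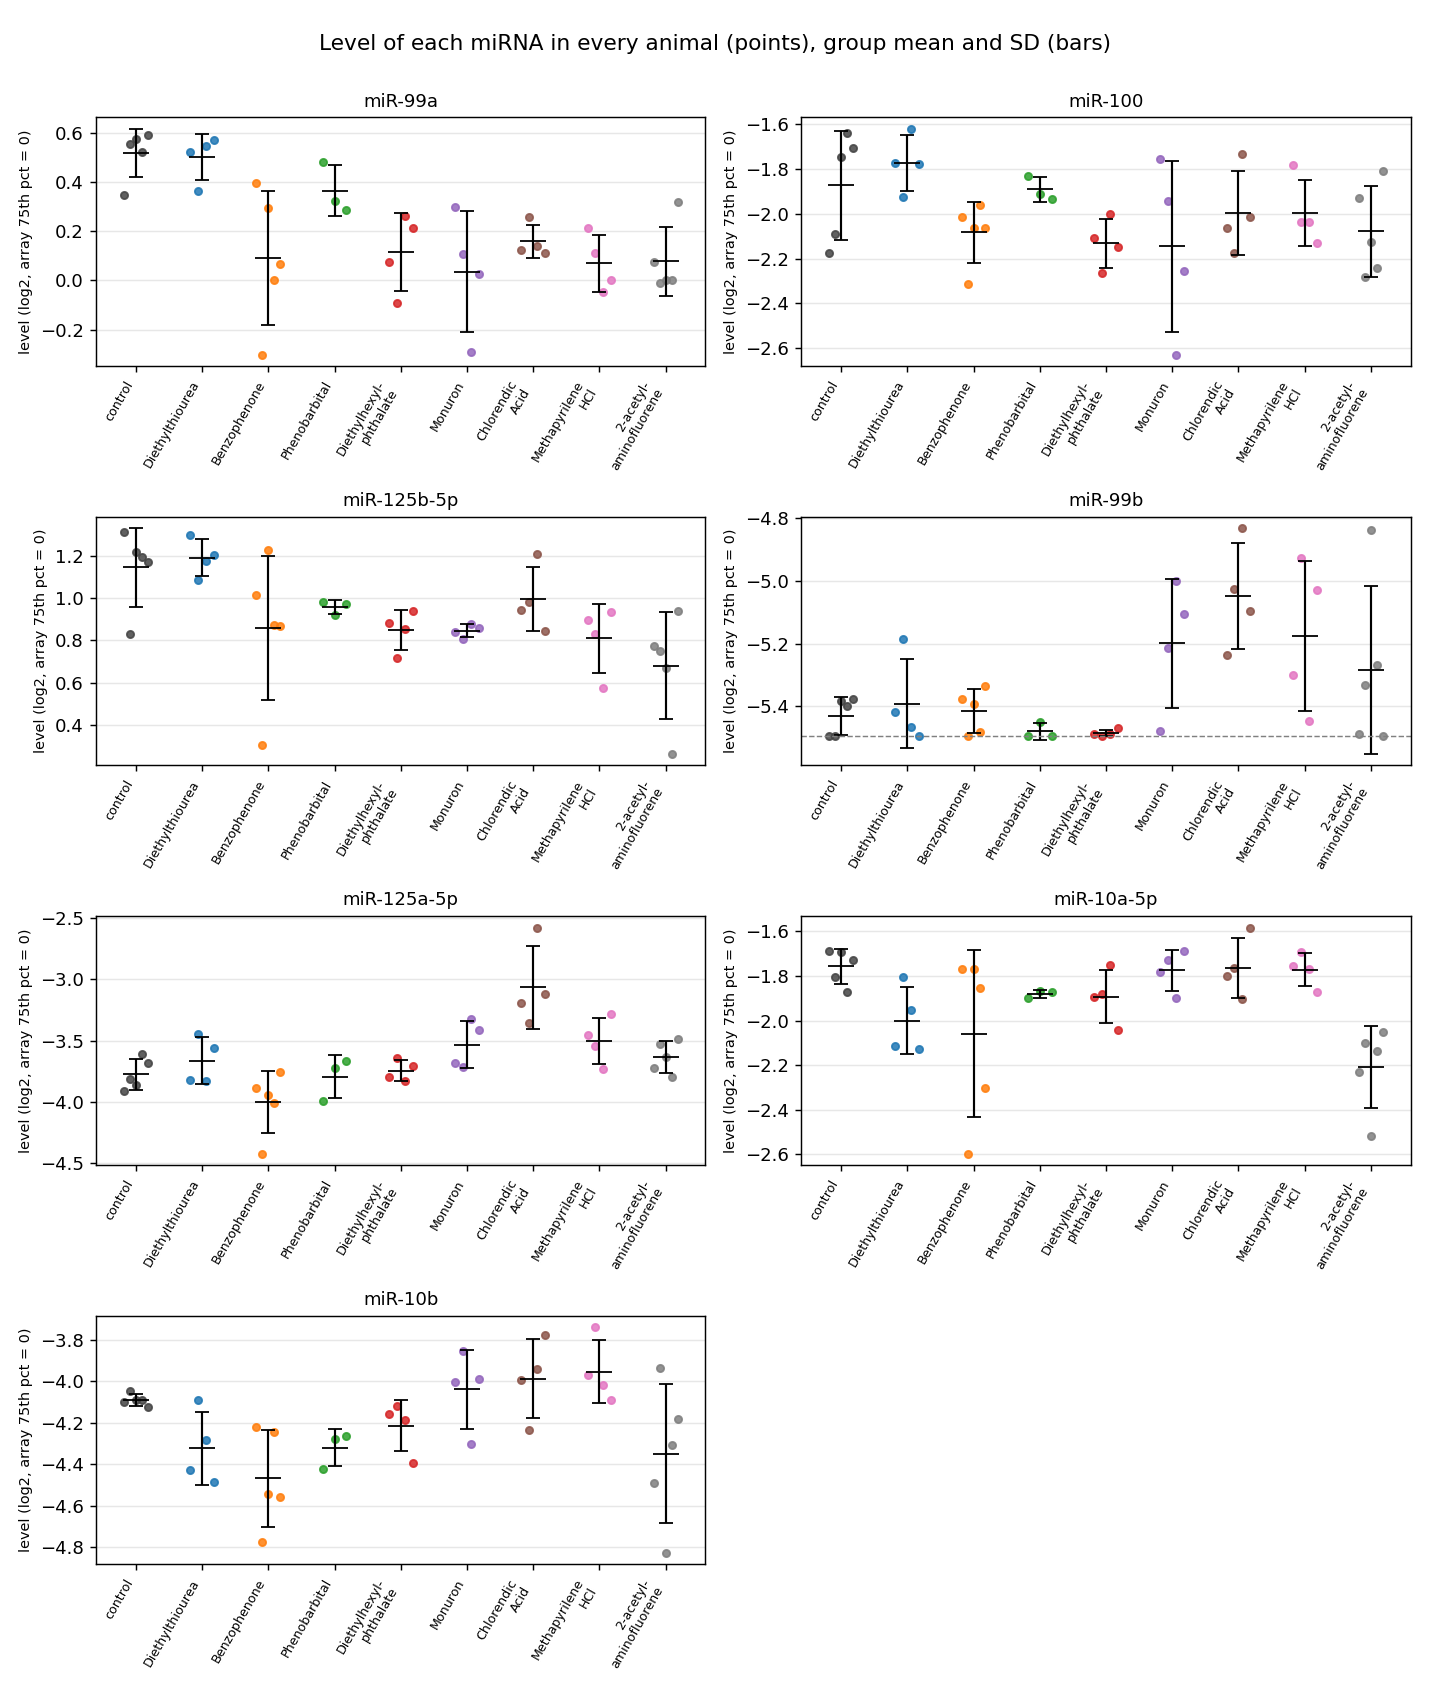
Level of each of the 7 miRNAs (vertical axis, log2 of signal over the array's 75th percentile) in each of 38 animals by diet; points are animals, bars the group mean and SD, and the dashed line in the miR-99b panel is the floor. miR-99a is lowest with 6 of the 8 chemicals, and miR-125a-5p is highest with Chlorendic Acid.

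Of the 56 differences between a diet and control 10 passed the test, 2 higher and 8 lower (limma over all 38 arrays, Benjamini-Hochberg adjusted p under 0.05). Of the 8 lower ones 6 were of miR-99a, a miRNA of the chromosome 11 cluster. Over all tested miRNAs 9.11% of 1032 such differences passed in either direction and 2.33% passed as lower. The median difference of the 56 was -0.13, while the median over all tested miRNAs lay between -0.04 and 0.10 with each diet. miR-125a-5p and miR-99b were higher with Chlorendic Acid, and miR-10a-5p and miR-125b-5p were lower with 2-acetylaminofluorene. No difference of miR-100 or miR-10b passed, and none of the 7 miRNAs passed with Diethylthiourea or Phenobarbital, where 0% and 3.88% of all miRNAs passed.

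**Figure D2:**
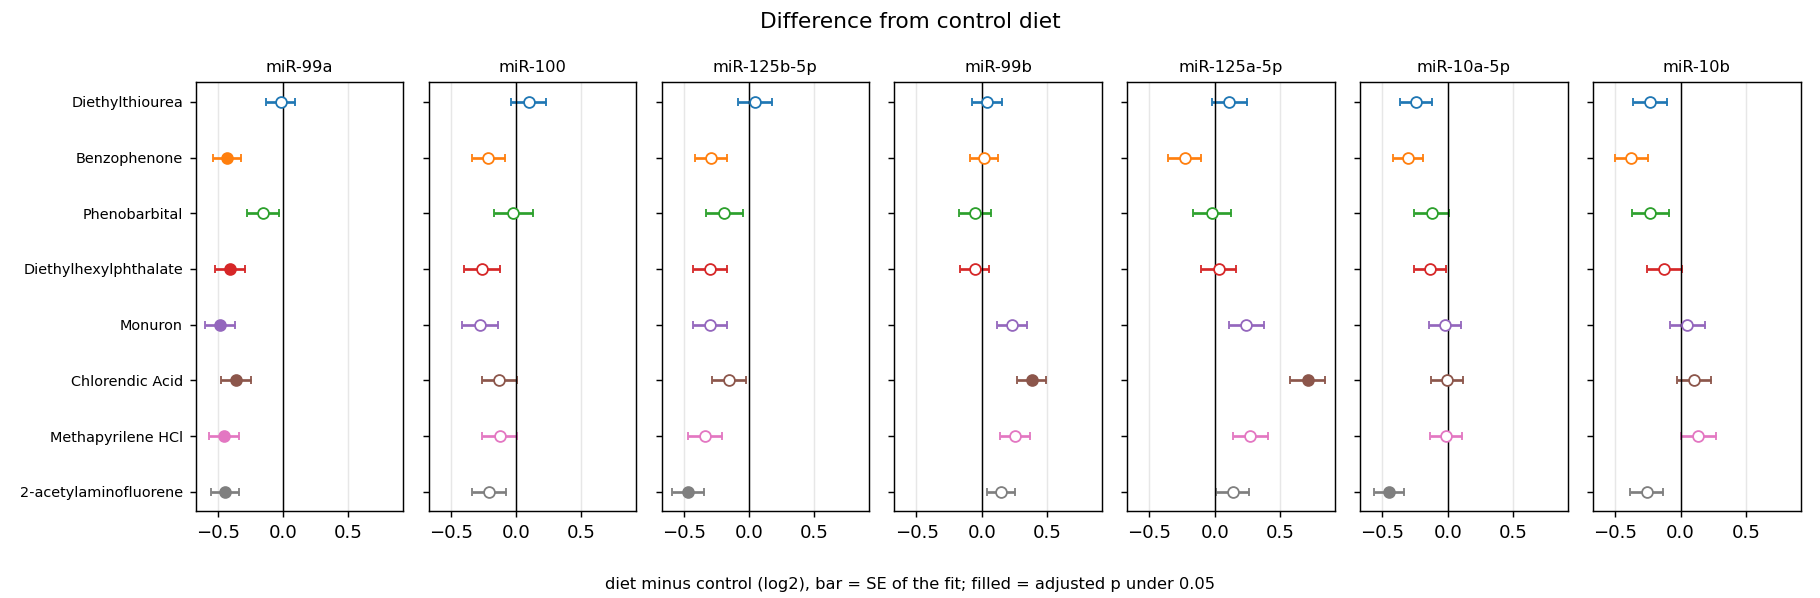
Difference of each diet from control diet (horizontal axis, log2) for the 7 miRNAs, with the SE of the limma fit; filled points have an adjusted p under 0.05. The filled points are 6 for miR-99a, 1 each for miR-125b-5p, miR-99b, miR-125a-5p and miR-10a-5p, and none for miR-100 or miR-10b.

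miR-99a had levels of 0.35, 0.55, 0.57, 0.52 and 0.59 in the 5 control animals. Monuron, a phenylurea herbicide, gave 0.30, 0.11, -0.29 and 0.03, and all 4 animals were below the lowest control animal. The difference was -0.48 ± 0.11 (SE), or 0.715-fold (limma, adjusted p = 0.00546). Methapyrilene HCl, an antihistamine that causes liver tumours in rats, gave 0.21, 0.11, -0.05 and 0.00. It differed by -0.45 ± 0.11 (adjusted p = 0.0256), and its animals did not overlap control. 2-acetylaminofluorene, an aromatic amide that forms DNA adducts, gave 0.08, -0.01, 0.00, 0.00 and 0.32, again all below control. The difference was -0.44 ± 0.11 (adjusted p = 0.00636).

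Benzophenone, an ultraviolet filter and ink ingredient, gave miR-99a levels of 0.40, -0.30, 0.29, 0.00 and 0.07. The highest of these animals overlapped the lowest control animal, and the difference was -0.43 ± 0.11 (limma, adjusted p = 0.00758). Diethylhexylphthalate, a plasticizer and peroxisome proliferator, gave 0.07, -0.09, 0.26 and 0.21, with no overlap with control and a difference of -0.40 ± 0.11 (adjusted p = 0.0169). Chlorendic Acid, a chlorinated flame retardant, gave 0.13, 0.26, 0.14 and 0.11 and differed by -0.36 ± 0.11 (adjusted p = 0.0149), also without overlap. The share of all miRNAs called lower was 1.55% with Benzophenone, 3.88% with Diethylhexylphthalate, 0.775% with Monuron, 9.3% with Chlorendic Acid, 0.775% with Methapyrilene HCl and 2.33% with 2-acetylaminofluorene. With Monuron and with Methapyrilene HCl miR-99a was the 1 miRNA of 129 called lower.

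With 2 diets the difference of miR-99a did not pass. Diethylthiourea, a thiourea compound, gave 0.52, 0.36, 0.55 and 0.57, a difference of -0.02 ± 0.11 (limma, adjusted p = 0.993). Phenobarbital, the classic inducer of liver drug metabolism, gave 0.48, 0.32 and 0.29, a difference of -0.15 ± 0.12 (adjusted p = 0.669). By mean level the order ran from control (0.52) through Diethylthiourea (0.50), Phenobarbital (0.36), Chlorendic Acid (0.16), Diethylhexylphthalate (0.11), Benzophenone (0.09), 2-acetylaminofluorene (0.08) and Methapyrilene HCl (0.07) to Monuron (0.04). Neighbours in that order overlapped, except that all 3 Phenobarbital animals were above all 4 Chlorendic Acid animals. The 6 lowest groups had SDs of 0.07 to 0.27, and their means differed by less than that upper SD. The F test among the 8 treated groups passed for miR-99a (adjusted p = 0.0149), as it did for 49.6% of all miRNAs.

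Against the mean of all 8 diets miR-99a differed from control by -0.34 ± 0.08 (limma, adjusted p = 0.00502), and 30 of 33 treated animals were below the control mean. It was the 1 of 129 miRNAs lower in that comparison, 0.775%, while 6.2% passed in either direction. No other miRNA was called lower with more than 1 of the diets in these fits. The comparisons share the same 5 control animals, so they are not independent of each other. The signal of the brighter miR-99a probe was itself the 75th percentile used for scaling on 4 arrays, where its level is 0 by construction. The other miR-99a probe was that percentile on Diethylthiourea replicate 2, Benzophenone replicate 1 and Phenobarbital replicate 3. With the percentile taken without the probes of the 7 miRNAs, an alternative chosen after seeing the data, the same comparison gave -0.39 and miR-99a still passed with 6 diets. The other probe of miR-99a was lower by 0.20 to 0.36 in those 6 diets as well, with no adjusted p under 0.05.

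The arrays lie on 6 slides, and Monuron and Methapyrilene HCl share none with control. Control arrays lie on slides 1, 3 and 4 only. With Benzophenone and with 2-acetylaminofluorene 1 array each of 5 lies on such a slide. All 3 Phenobarbital arrays and all but 1 Diethylthiourea array, of the 2 diets without a call, lie on slides with control. Slide and diet are thus partly confounded. Within shared slides the differences were -0.15 with Benzophenone (slide 1), -0.66 and -0.13 with Diethylhexylphthalate (slides 3 and 4), -0.42 and -0.16 with Chlorendic Acid (slides 1 and 4) and -0.57 with 2-acetylaminofluorene (slide 3), each from 1 or 2 arrays a side. With slide as a block all 8 differences of miR-99a stayed below 0, and 1 of the 6 calls, Chlorendic Acid (-0.34), passed. The other 5 were -0.42 with Benzophenone, -0.38 with Diethylhexylphthalate, -0.44 with Monuron, -0.42 with Methapyrilene HCl and -0.40 with 2-acetylaminofluorene, close to their values without the block. Those of Monuron and Methapyrilene HCl are linked to control only through other diets, since no slide is shared. The call was also lost without Benzophenone replicate 2 (adjusted p = 0.052), without Diethylhexylphthalate replicate 1 or replicate 2 (highest adjusted p = 0.0837), without Monuron replicate 3 (0.0738), and for Methapyrilene HCl without control replicate 2 or without its own replicate 3 or 4 (highest 0.0791).

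miR-125b-5p, which shares a cluster with miR-99a and another with miR-100, was lower with 2-acetylaminofluorene. Its control levels were 1.31, 0.83, 1.22, 1.19 and 1.17, and the 2-acetylaminofluorene animals had 0.77, 0.75, 0.67, 0.26 and 0.94. The groups overlapped only through the lowest control animal, and the difference was -0.46 ± 0.12 or 0.724-fold (limma, adjusted p = 0.0101). Its other probe differed by -0.43 (adjusted p = 0.0513). The other 7 diets gave differences of 0.04 with Diethylthiourea and -0.15 to -0.34 elsewhere, none of which passed. In the 4 Monuron animals the levels were 0.84, 0.81, 0.88 and 0.86, an SD of 0.03. Over the 9 groups the F test passed (adjusted p = 0.0221, where 45% of miRNAs passed), and among the 8 treated groups it did not (0.0588).

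miR-100, the close relative of miR-99a on chromosome 8, did not pass in any comparison. Its control levels were -2.18, -2.09, -1.75, -1.64 and -1.71, a wider spread than that of miR-99a in the same animals. The differences ran from 0.10 with Diethylthiourea to -0.27 with Monuron, whose animals had -1.76, -1.95, -2.63 and -2.26. Of the 8 differences of miR-100 7 were below 0, and their SEs were 0.13 to 0.15. The F test over the 9 groups gave an adjusted p of 0.205.

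miR-125a-5p, of the chromosome 1 cluster, rose with Chlorendic Acid and had the largest difference of the 7 miRNAs. Its control levels were -3.91, -3.81, -3.86, -3.61 and -3.68, against -3.20, -3.36, -2.58 and -3.12 with Chlorendic Acid. All 4 treated animals were above all 5 control animals. The difference was 0.71 ± 0.13 or 1.64-fold (limma, adjusted p = 0.000215). Chlorendic Acid was the diet with the most calls, 29.5% of miRNAs, and 20.2% were higher. Within slides 1 and 4 the differences were 0.54 and 0.68. It passed with slide as a block (0.70), while with normexp background correction the difference was 0.05 and did not pass (adjusted p = 0.878). With normexp the median over all tested miRNAs with this diet was -0.30. The normexp offset of 50 units is close to the median control signal of miR-125a-5p, 52.3 units. The other probe, detected on 21 arrays, differed by 0.26 (adjusted p = 0.199), so the size of the change rests on 1 probe. Monuron (0.24 ± 0.13) and Methapyrilene HCl (0.27 ± 0.13) also had all 4 animals above the control mean but did not pass (adjusted p = 0.388 and 0.311), and Benzophenone was at -0.23 (0.493).

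miR-99b, its neighbour, rose with the same diet at the edge of detection. Control levels were -5.49, -5.49, -5.38, -5.40 and -5.38, and Chlorendic Acid gave -5.24, -5.02, -4.83 and -5.10, with all 4 arrays detected. The groups did not overlap and the difference was 0.38 ± 0.11 (limma, adjusted p = 0.00913). The other probe was at the floor on all control and all Chlorendic Acid arrays, so it could not show a change. In signal units the control arrays had 10 to 25 and the Chlorendic Acid arrays 23 to 31. The call was lost without Chlorendic Acid replicate 3 (adjusted p = 0.0686) and turned to -0.38 with normexp background correction, whose offset of 50 units lies above these signals. With the authors' deposited values the difference was 0.47 and did not pass. miR-99b was detected on all 4 Methapyrilene HCl arrays and 3 of 4 Monuron arrays too, with differences of 0.25 and 0.23 that did not pass (adjusted p = 0.24 and 0.327).

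miR-10a-5p, of the Hoxb cluster, was lower with 2-acetylaminofluorene, as miR-99a and miR-125b-5p were. It had control levels of -1.69, -1.80, -1.69, -1.87 and -1.73, and 2-acetylaminofluorene gave -2.23, -2.10, -2.52, -2.14 and -2.05. The groups did not overlap, with a difference of -0.45 ± 0.12 or 0.731-fold (limma, adjusted p = 0.00987). The other probe also passed, at -0.38 (adjusted p = 0.0376 over all probes of the tested miRNAs), and the difference within slide 3 was -0.37. With slide as a block it did not pass. With Monuron, Chlorendic Acid and Methapyrilene HCl the differences were -0.02, -0.01 and -0.02, with SEs of 0.12. With Benzophenone the animals split, at -1.77, -2.60, -1.77, -1.85 and -2.30, and the difference of -0.30 did not pass (0.148).

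miR-10b had control levels within a narrow band, -4.10, -4.05, -4.09, -4.09 and -4.12. Benzophenone gave -4.22, -4.77, -4.55, -4.24 and -4.56, all below control, yet the difference of -0.38 ± 0.12 did not pass (limma, adjusted p = 0.0628). Phenobarbital gave -4.42, -4.28 and -4.26, also all below control (-0.23, adjusted p = 0.529). The fit shares 1 spread over the 9 groups, and the SD of miR-10b was 0.03 in control and up to 0.34 with 2-acetylaminofluorene. Methapyrilene HCl and Chlorendic Acid were the groups with the highest means (-3.95 and -3.99) and Benzophenone the one with the lowest (-4.47). The F test passed both over the 9 groups (adjusted p = 0.0127) and among the 8 treated groups (0.0111).

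Pairs of miRNAs from the same cluster or the same family were then compared within each array, which takes out the scaling except where miR-99b meets the floor, since the floor is set after scaling. For 12 pairs the log2 ratio was tested over the 9 groups with a permutation F test (100000 resamples, adjusted over the 12). Of these pairs 5 passed, and 1 of the 5 holds miR-99b, whose ratios rest on signals at or near the floor. No share for other pairs of miRNAs is given here, and 45% of single miRNAs passed the limma F test over the 9 groups. The count is thus not shown to be particular to these pairs. The smallest adjusted p was that of the ratio of miR-125a-5p to miR-125b-5p, the pair with the same seed but different loci (adjusted p = 0.00012, from the smallest p the resamples can give, 1e-05). Relative to control this ratio was higher by 0.86 ± 0.16 (SE) with Chlorendic Acid, 0.61 ± 0.11 with Methapyrilene HCl, 0.60 ± 0.13 with 2-acetylaminofluorene and 0.54 ± 0.13 with Monuron, and in these 4 diets the animals did not overlap control. With normexp this pair did not pass (adjusted p = 0.801). It was higher by 0.33 with Diethylhexylphthalate, 0.17 with Phenobarbital, 0.07 with Diethylthiourea and 0.06 with Benzophenone, where they did.

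**Figure D3:**
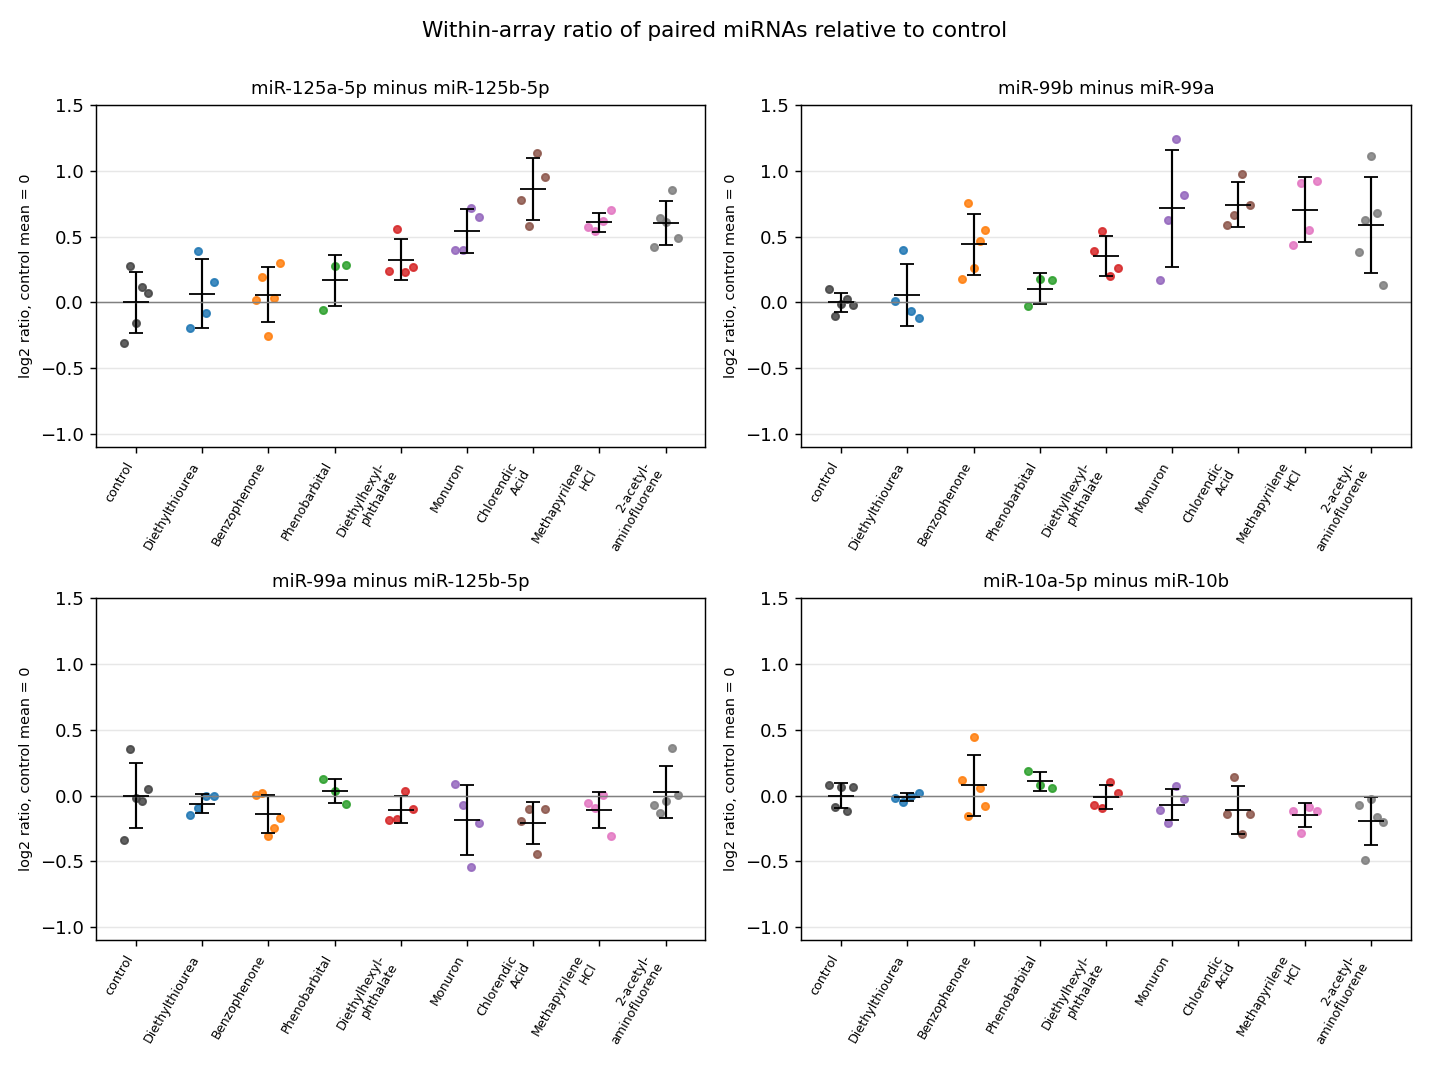
Log2 ratio of 2 miRNAs on the same array (vertical axis, mean of control set to 0) by diet; points are animals, bars the group mean and SD. The miR-125a-5p to miR-125b-5p ratio is 0.86 above control with Chlorendic Acid, while miR-99a to miR-125b-5p and miR-10a-5p to miR-10b stay within 0.21 of control in every group mean.

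The ratio of miR-99b to miR-99a passed as well (permutation test, adjusted p = 0.00162), but 3 of 5 control arrays did not detect miR-99b, so the ratio is bounded by the floor. With Chlorendic Acid it was 0.74 higher, where miR-99a was at -0.36 and the dim miR-99b at 0.38. With Monuron, Methapyrilene HCl and 2-acetylaminofluorene it was 0.71, 0.70 and 0.59 higher, where miR-99b was at 0.23, 0.25 and 0.15. With Benzophenone the ratio was 0.44 higher and miR-99a alone was at -0.43. With Diethylhexylphthalate, where miR-99b was at -5.47 or below in all 4 animals, the ratio was 0.35 higher and miR-99a was at -0.40. With normexp this pair did not pass (adjusted p = 0.951), nor with slide as a block (0.0644). Among the miRNAs of the chromosome 11 cluster both miR-99a and miR-125b-5p changed relative to let-7c (adjusted p = 0.0135 and 0.0048). With Diethylhexylphthalate the ratio to let-7c was lower by 0.56 ± 0.12 for miR-99a and by 0.45 ± 0.05 for miR-125b-5p, and neither overlapped control. On chromosome 1 miR-125a-5p changed relative to let-7e (adjusted p = 0.0233), by 0.43 ± 0.11 with Chlorendic Acid. With slide as a block most of these ratios to let-7 miRNAs did not pass. let-7a and let-7c also come from other loci, so ratios to them compare the mature miRNAs and not the clusters.

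The other 7 pairs did not pass. The ratio of miR-99a to miR-125b-5p, cluster mates on chromosome 11, had an adjusted p of 0.505, and its changes ran from -0.21 to 0.03 over the diets with SEs of 0.12 to 0.17. miR-100 to miR-125b-5p gave 0.674, miR-99a to miR-100 gave 0.175 and miR-10a-5p to miR-10b gave 0.113. miR-99b to let-7e gave 0.686 and miR-100 to let-7a 0.134. miR-99b to miR-125a-5p gave 0.0583, and this pair passed with scaling over all probes (0.0194), normexp (0.0239), quantile normalization (0.0244), the replicate number as a block (0.0264) and scaling without the 7 miRNAs' probes (0.0341). It did not pass with the lower floor (0.134), slide as a block (0.232), the mean of the probes (0.301), the total gene signal (0.472) or the authors' table (0.776). In exact permutation tests of each pair in each diet against control, 0 of 96 passed after adjustment (lowest adjusted p = 0.0847) and 21 had an unadjusted exact p under 0.05. In 14 of the 96 the animals did not overlap control, among them comparisons of miR-99b to miR-99a, whose ratio is bounded by the floor. The 96 share the same control animals, and no share for other pairs of miRNAs is given. The smallest exact p is 0.00794 for the groups of 4 and 5 animals and 0.0179 for the 3 Phenobarbital animals. Comparisons at 0.00794 had an adjusted p of 0.0847, so 0 of 96 does not show that the ratios were unchanged.

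Among the 80 miRNAs detected on all arrays, the 3 most like miR-99a by Pearson correlation of level were miR-100 (0.749), miR-125b-5p (0.718) and miR-192 (0.549), the last a hepatocyte miRNA. For miR-100 they were miR-99a, miR-125b-5p (0.539) and miR-194 (0.468), and for miR-125b-5p they were miR-99a, miR-122 (0.557) and miR-100. miR-125a-5p was most like let-7i (0.779), miR-23a (0.752) and its cluster mate let-7e (0.721). For miR-10a-5p they were miR-126 (0.807), miR-10b (0.781) and miR-192 (0.728). For miR-10b they were miR-10a-5p, miR-23a (0.645) and let-7e (0.567).

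With group means removed, the correlation was 0.68 for miR-99a with miR-100, 0.72 for miR-10a-5p with miR-10b, 0.52 for miR-99a with miR-125b-5p and 0.60 for miR-125a-5p with let-7e. For scale, the median over all 3160 pairs of the 80 miRNAs was 0.26 and the 90th percentile 0.63. Cluster mates ranged widely, with miR-125b-5p and let-7c at 0.49, miR-99b and miR-125a-5p at 0.44, miR-100 and miR-125b-5p at 0.36, miR-99b and let-7e at 0.36, miR-99a and let-7c at -0.02 and miR-100 and let-7a at -0.17. All points share the scaling of their array, and probes of near-identical miRNAs may share signal, so these values are descriptions of the arrays.

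Of 18 listed neighbours of these genes (cluster let-7 miRNAs, opposite strands of the hairpins and the Hox-cluster miRNAs miR-196 and miR-615), 13 were on the array, 6 could be tested and 5 were never detected. None of the 6 tested, let-7a, let-7c, let-7e, miR-196a, miR-196b and miR-196c, passed with any diet. let-7e had its largest difference with Chlorendic Acid (0.29 ± 0.13, limma, adjusted p = 0.0935), and let-7e passed the F test among the treated groups (0.0488). The miR-196 miRNAs varied widely in control (SDs of 1.14, 0.81 and 1.25), and the SEs of their differences, 0.53 to 0.69, were larger than any difference of miR-99a.

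Markers of other liver cells were read on the same arrays, since in whole tissue fewer cells of a type and less RNA per cell cannot be told apart. With 2-acetylaminofluorene, where miR-10a-5p and miR-125b-5p fell, 3 of 5 mesenchymal markers were higher: miR-199a-3p by 0.55, miR-199a-5p by 0.61 and miR-214 by 0.49. Their summed level ran from -0.35 to 0.39, against -0.33 to -0.11 in control. miR-126, the endothelial marker, was at 0.37 to 0.70 against 0.59 to 0.81. The summed level of the 4 leukocyte markers on the array was -1.56 to -1.35, above every control array (-2.08 to -1.61), while none of the 3 tested passed (miR-142-3p 0.78, miR-223 0.28 and miR-150 0.10, lowest adjusted p = 0.076). With Chlorendic Acid the leukocyte marker miR-150 was higher by 0.45, whereas miR-142-3p was at -0.52 (adjusted p = 0.207) and miR-223 at 0.22 (0.147). The leukocyte sum there was -1.91 to -1.28 and overlapped control, with miR-142-5p at the floor in both groups. With Methapyrilene HCl miR-199a-3p was higher by 0.61.

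The hepatocyte list, miR-122, miR-192 and miR-194, summed to 6.20 to 6.81 in control and to 5.93 to 6.64 over the treated groups, so the tissue carried its defining miRNA. miR-122 was lower with Diethylhexylphthalate (-0.34, limma, adjusted p = 0.0239), a diet where miR-99a was lower too, and so was the red cell marker miR-451 (-0.72, 0.0426). With that diet miR-192 was at -0.18 and miR-194 at -0.03, neither of which passed, and the hepatocyte sum was 6.12 to 6.22. Of the 5 epithelial markers 3 were tested: miR-200a, miR-200b and miR-429. At least 2 of these 3 were higher in 5 of the 6 diets with lower miR-99a. All 3 were higher with Phenobarbital, where miR-99a did not pass. With Monuron no tested marker of these lists passed, and miR-99a was lower there. The part of these cell types in the results was not tested.

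**Figure D4:**
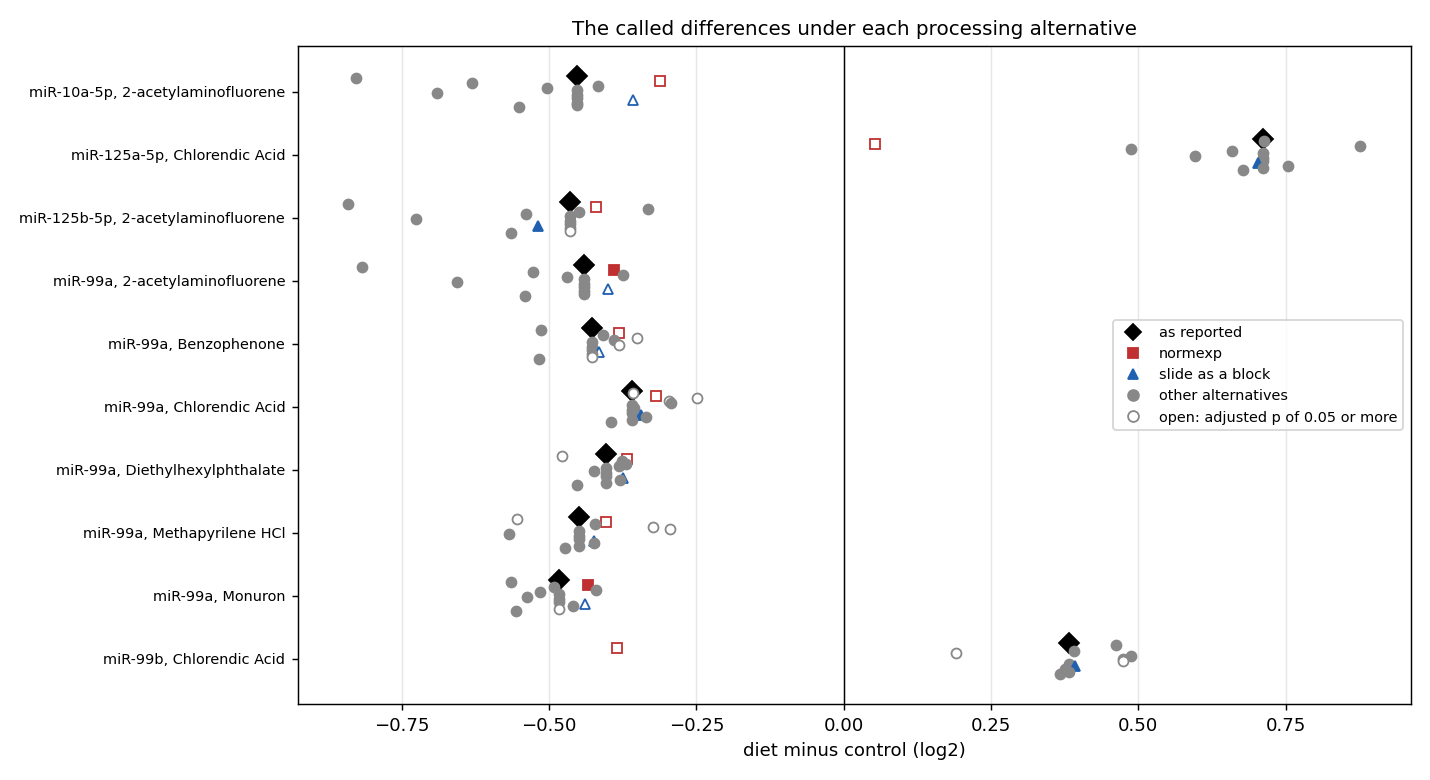
The 10 called differences from control (horizontal axis, log2) under the reported processing (diamonds), normexp (squares), slide as a block (triangles) and the other alternatives (circles); open symbols have an adjusted p of 0.05 or more. 9 of the 10 stay on one side of 0, and miR-99b with Chlorendic Acid turns to -0.38 with normexp.

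With normexp the calls of miR-99a with Monuron and with 2-acetylaminofluorene passed, and the other 8 did not. Over all 129 miRNAs normexp gave 1 call with Monuron, 3 with 2-acetylaminofluorene and 7 with Chlorendic Acid. With 2-acetylaminofluorene the difference was then -0.31 for miR-10a-5p and -0.42 for miR-125b-5p. The call of miR-125b-5p was also lost in a limma fit of the 2 compared groups alone (highest adjusted p over its alternatives 0.0906), as were those of miR-99a with Benzophenone and Monuron. With the mean of both probes, miR-99a with Benzophenone, Chlorendic Acid and Methapyrilene HCl and miR-99b with Chlorendic Acid did not pass. Scaling over all probes gave larger differences with 2-acetylaminofluorene, -0.82 for miR-99a, -0.83 for miR-10a-5p and -0.84 for miR-125b-5p, where the median over all tested miRNAs was -0.33.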

How the data were processed

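The authors hybridized Cy3-labelled total RNA from 1 liver per array to Agilent 1-colour miRNA arrays, and RNA integrity numbers exceeded 8 per the labels. Feature Extraction 10.5.1.1 made the deposited scanner files, per the file headers, and these give each spot's intensity, which is linear. The authors' deposited value table covers 167 miRNAs in log2 units. Subtracting a constant per array from the log2 total gene signal returned 99.4% of 6293 of its values within 0.01. Its column medians were 0.0162 to 0.337, and the basis of the constant is unknown.

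Control spots and outlier spots (2.17% to 6.76% per array) were left out, and the spots of each of 938 probes were averaged. Arrays were divided by the 75th percentile (424 to 1086 signal units) over the 137 probes detected on all arrays. The floor was the 5th percentile of detected values. Detection of a probe required more than 50% of its spots to be well above background. The brightest probe stood for a miRNA. Testing covered 129 miRNAs, those found on all arrays of some group, fitted with limma 3.58.1 in R 4.3.3 over all 38 arrays, with Benjamini-Hochberg adjustment in each comparison. Pair ratios were tested with permutation tests in Python 3.11.15, and figures used matplotlib 3.10.9. Both tests were checked on simulated data. Sequences and positions are RefSeq's for GRCr8.

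All 7 miRNAs, their clusters' listed neighbours and the marker miRNAs are named. The members, pairs and lists were chosen with earlier results of these data known. Each array is 1 animal, cage sharing is not given per animal, and replicate numbers do not pair animals: the median correlation of deviations was -0.06 for arrays with the same number and -0.00048 for others. With 3 to 5 animals a group precision is limited, as it is by signal over background for the dim miR-99b, miR-10b and miR-125a-5p. The alternatives tried are given at the end with their effect.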

Additional observations from a re-analysis of the deposited data

Results flagged for a closer look

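Of 56 groups 2 held 1 animal apart from the rest by Dixon's criterion, and chance flags about 1 in 20 groups. miR-99a in control replicate 1 was at 0.35, while the other 4 control animals were at 0.52 to 0.59. That animal was the only control array on slide 4. miR-99a in 2-acetylaminofluorene replicate 5 was at 0.32, while the other 4 were at -0.01 to 0.08.

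Differences from control were unequal among the 8 treated groups by the limma F test for 5 of the 7 miRNAs. The adjusted p was 0.00014 for miR-125a-5p, 0.0111 for miR-10b, 0.0149 for miR-99a, 0.0200 for miR-99b and 0.0200 for miR-10a-5p. Among all 129 miRNAs 49.6% passed this test.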

How the results depend on the processing

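The count of 10 calls against control fell to 2 with normexp, 6 with the mean of the probes and 4 with slide as a block. Over all 129 miRNAs the calls with Chlorendic Acid went from 38 to 7, 33 and 36 in these 3 settings. Those with 2-acetylaminofluorene went from 15 to 3, 17 and 5. The 6 miRNAs that differed over the 9 groups became 1 with normexp and 3 with slide as a block. The 5 that differed among the treated groups became 0 with normexp and 3 with the authors' table. The 1 that differed between the mean of the diets and control became 0 with the mean of the probes, 0 with slide as a block and 2 with the total gene signal. The count of 5 passing pairs became 3 with normexp and 2 with slide as a block. With normexp 2 of the 5 passed, miR-99a and miR-125b-5p each against let-7c, and the third was miR-99b to miR-125a-5p, which was not among the 5. The cause of these shifts was not tested. The ratio of miR-125a-5p to miR-125b-5p passed with slide as a block (adjusted p = 0.00012) and did not with normexp (0.801). miR-99b with Chlorendic Acid reversed to -0.38 with normexp.

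miR-99a passed with 6 diets in the reported fit, 1 with slide as a block, 2 with normexp, 3 with scaling over all probes or the mean of the probes, and 5 with the authors' table. Without 1 array at a time the counts ran from 9 to 12 for calls, 5 to 6 over the 9 groups, 4 to 6 among the treated groups, 1 to 2 for the mean of the diets and 4 to 7 for pairs. The replicate number as a block gave 10 calls and 6 pairs. Scaling without the 7 miRNAs' probes, chosen after seeing the data, gave 13 calls. Over all 129 miRNAs the calls then rose from 6 to 13 with Benzophenone and fell from 19 to 14 with Diethylhexylphthalate. Scaling over all probes moved the median difference with 2-acetylaminofluorene from -0.0043 to -0.33, and miR-125a-5p there from 0.14 to -0.24. Normexp moved the median with Chlorendic Acid from 0.10 to -0.30. A fit of only the compared groups gives no F test, and pair ratios do not depend on the filter of tested miRNAs.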
